A study of Homo sapiens with 6 samples.

Results

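Of the 17862 genes in the deposited expression table, 43 were taken here as the hypoxia and glycolysis set: the subunits and oxygen sensors of the hypoxia-inducible factors (HIF), well known HIF targets, and the enzymes, carriers and regulators of glycolysis. The 43 were taken by gene symbol from a list drawn up by known role, with earlier results of these data known. Their share of calls is therefore no independent test of the set. All 43 were in the table and passed the filter on low counts. They split into 18 genes of the HIF pathway and its targets outside glycolysis and 25 genes of glucose uptake, glycolysis and lactate handling. HIF targets are also among the 25, so the split does not part targets from other genes.

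RNA was sequenced from SCC-9, an established human tongue squamous cell carcinoma line, in 3 libraries carrying a short hairpin against MTHFD2 (shMTHFD2) and 3 libraries carrying a control hairpin (shNC). MTHFD2 is a mitochondrial enzyme of the folate cycle. Both groups received a hairpin plasmid and grew in DMEM/F12 supplemented with hydrocortisone at 400 ng/mL and 10% serum. The labels call the treatment a knockdown and the design text a knock-out, they give neither an oxygen level nor whether cells were cloned or pooled, and they call the libraries biological replicates without describing separate cultures, so a p-value here covers no more than the variation among the 6 libraries.

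The targeted gene was measured first. MTHFD2 stood at 38.5, 29.1 and 58.5 TPM (transcript abundance scaled by gene length and library) in the shMTHFD2 libraries, against 160.4, 168 and 149.6 TPM in the shNC libraries. Every shMTHFD2 library was below every shNC library, and the log2 fold change was -1.95 ± 0.21 (SE; adjusted p = 0.00924, edgeR quasi-likelihood test). Each library held 18676999 to 19838989 estimated counts, and 3 counts amount to 0.0984 to 0.1036 TPM for a gene of median length. The biological coefficient of variation was 16.7%, and the lowest estimated count of any of the 43 genes in any library was 9.56 (ANKRD37). The shMTHFD2 libraries varied more among themselves than the shNC libraries: correlations of log2 CPM (counts scaled by library) were 0.9631 to 0.9884 within shMTHFD2 and 0.9957 to 0.997 within shNC. Between the groups they were 0.9531 to 0.9883, a range that overlaps the one within shMTHFD2. The 10 squamous epithelial markers summed to 9098 to 11236 TPM in shMTHFD2 and 9619 to 10622 TPM in shNC, with none at 0. The 6 fibroblast markers summed to 12.7 to 24.2 TPM in shMTHFD2 and 6.05 to 8.71 TPM in shNC. Of these, 3 were under 1 TPM in every library and none was at 0 in all of them. COL1A1 held most of the sum, at 11.4, 22.5 and 9.60 TPM in shMTHFD2, against 6.40, 4.23 and 6.51 TPM in shNC. The part of these markers in the results was not tested. All 4 endothelial markers stayed under 1 TPM. The 5 leukocyte markers summed to 14.0 to 17.2 TPM in shMTHFD2 and 16.4 to 25.8 TPM in shNC. Most of that sum was CD14, and 3 of the 5 were under 1 TPM in every library. In bulk RNA, fewer cells of a type and less RNA per cell cannot be told apart.

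HIF is a transcription factor made of an oxygen-regulated alpha subunit, HIF1A or EPAS1 (HIF-2 alpha), and the constant partner ARNT. When oxygen is present, the prolyl hydroxylases EGLN1, EGLN2 and EGLN3 mark the alpha subunit, VHL binds the mark and the subunit is degraded, while HIF1AN blocks its contact with coactivators. When oxygen is low the alpha subunit persists and binds hypoxia response elements, whose core reads ACGTG or GCGTG, beside genes for glucose uptake, glycolysis, vessel growth, pH control and mitophagy. This control acts mainly on protein, and the data here are RNA.

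The promoters below belong to 4 of the genes that passed the test, and they are shown so that the HIF core motif can be read beside the RNA values. Each is the 250 bases upstream of the RefSeq gene start in GRCh38.p14, written 5′ to 3′ on the gene's strand, with capitals marking ACGTG or GCGTG on either strand (CACGT and CACGC are their reverse complements, and CACGTG holds ACGTG on both strands). The windows are chr12:6914330-6914579 (plus strand) for ENO2, chr10:131981924-131982173 (minus strand) for BNIP3, chr11:10304823-10305072 (plus strand) for ADM and chr3:4979187-4979436 (plus strand) for BHLHE40.
ENO2: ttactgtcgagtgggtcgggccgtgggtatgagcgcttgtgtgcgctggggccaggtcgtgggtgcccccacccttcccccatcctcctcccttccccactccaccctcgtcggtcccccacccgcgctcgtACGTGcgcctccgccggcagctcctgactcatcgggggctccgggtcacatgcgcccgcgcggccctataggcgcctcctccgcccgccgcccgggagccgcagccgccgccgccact
BNIP3: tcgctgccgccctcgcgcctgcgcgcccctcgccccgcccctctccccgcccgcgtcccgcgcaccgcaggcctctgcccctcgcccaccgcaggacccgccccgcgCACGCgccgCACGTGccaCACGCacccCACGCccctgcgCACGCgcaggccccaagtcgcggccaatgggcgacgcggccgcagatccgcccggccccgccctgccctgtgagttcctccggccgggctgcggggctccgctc
ADM: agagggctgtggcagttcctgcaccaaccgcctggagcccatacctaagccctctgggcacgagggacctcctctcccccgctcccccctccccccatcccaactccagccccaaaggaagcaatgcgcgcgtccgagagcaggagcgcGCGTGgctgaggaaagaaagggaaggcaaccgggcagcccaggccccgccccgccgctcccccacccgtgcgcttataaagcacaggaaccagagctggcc
BHLHE40: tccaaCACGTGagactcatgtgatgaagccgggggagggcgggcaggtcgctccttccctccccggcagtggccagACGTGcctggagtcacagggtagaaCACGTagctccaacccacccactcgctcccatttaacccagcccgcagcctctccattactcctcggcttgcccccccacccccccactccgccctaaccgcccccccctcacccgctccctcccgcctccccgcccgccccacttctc

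ENO2 held 1 match, an ACGTG beginning 118 bases before the start. BNIP3 held 5 separate matches within a short stretch, at 143, 134, 125, 116 and 104 bases, the one at 134 being CACGTG. ADM held a single GCGTG at 101 bases, and BHLHE40 held matches at 245, 174 and 149 bases. HIF1A has 2 listed starts, with a GCGTG at 204 bases before the first and no match before the second. Such short motifs are common: either one was found in 59.1% of the 66 listed promoters of 36 matched members, in 53.9% of 16087 promoters of tested genes and in 43.2% of all 35116 promoters. ACGTG alone was found in 36.4% of member promoters, 21.8% of those of tested genes and 18.5% of all, and GCGTG in 34.8%, 42.5% and 32.2%. The palindrome CACGTG was found in 15.2%, 8.0% and 6.34%. A match describes the letters and does not show binding.

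Most of the genes that passed the test belonged to the HIF pathway and its targets outside glycolysis, and ENO2 was the glycolysis gene among them. By edgeR with Benjamini-Hochberg adjustment over all 13710 genes tested at a threshold of 0.05, 6 of the 43 genes rose in shMTHFD2 (14.0%, against 2.97% of all genes tested), and BHLHE40 alone fell (2.33%, against 2.47%). The genes that rose were HIF1A, BNIP3, BNIP3L, ADM, NDRG1 and ENO2. The other 36 did not pass. The HIF pathway and its targets outside glycolysis held 5 of 18 that rose (27.8%) and 1 that fell, with a median log2 fold change of 0.42. The glycolysis genes held 1 of 25 that rose (4.0%, near the 2.97% of all genes) and 0 that fell, with a median of 0.04. At an unadjusted p under 0.05, 5 of the 25 were higher and 3 lower, against 1998 and 1934 of all 13710 genes tested. Among the 25, DESeq2 called ENO2, ALDOC, HK2 and SLC2A1 higher and PKM lower, where it called 8.07% and 6.69% of all genes. The median over all genes tested was 0.01. Over the 43 genes the median was 0.10, and 28 fold changes were above 0 and 15 below it.

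The count depended on which libraries were used. Without shMTHFD2 replicate 2, 12 of the 43 rose and 3 fell, where 7.14% and 7.09% of all genes did. Without shMTHFD2 replicate 3, 10 rose and 3 fell, where 13.6% and 12.6% of all genes did. Without shMTHFD2 replicate 1, ENO2 alone passed (adjusted p = 0.032, edgeR) and the other 6 had adjusted p of 0.053 to 0.12, while 0.194% of all genes passed. Without shNC replicate 1 or 2 none of the 43 passed and 0.00716% of all genes did in each case, and without shNC replicate 3 none passed and 0.0358% of all genes did. The adjusted p of the 7 genes then lay between 0.07 and 0.2 without shNC replicate 1, between 0.063 and 0.2 without replicate 2, and between 0.053 and 0.13 without replicate 3 (edgeR). DESeq2 called 10 of the 43 higher and 3 lower, where it called 8.07% and 6.69% of all genes. The genes it added were ALDOC, HK2, INSIG2 and SLC2A1 on the higher side and PKM and VEGFA on the lower side.

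Scaling bore on the split of calls over the whole table. There were 407 genes higher and 338 lower with TMM scaling, 455 and 210 with upper quartile scaling, and 449 and 230 with total counts. With limma-trend on TPM, which differs in test and filter too, there were 386 and 183. The 7 members passed under each of these.

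**Figure D1:**
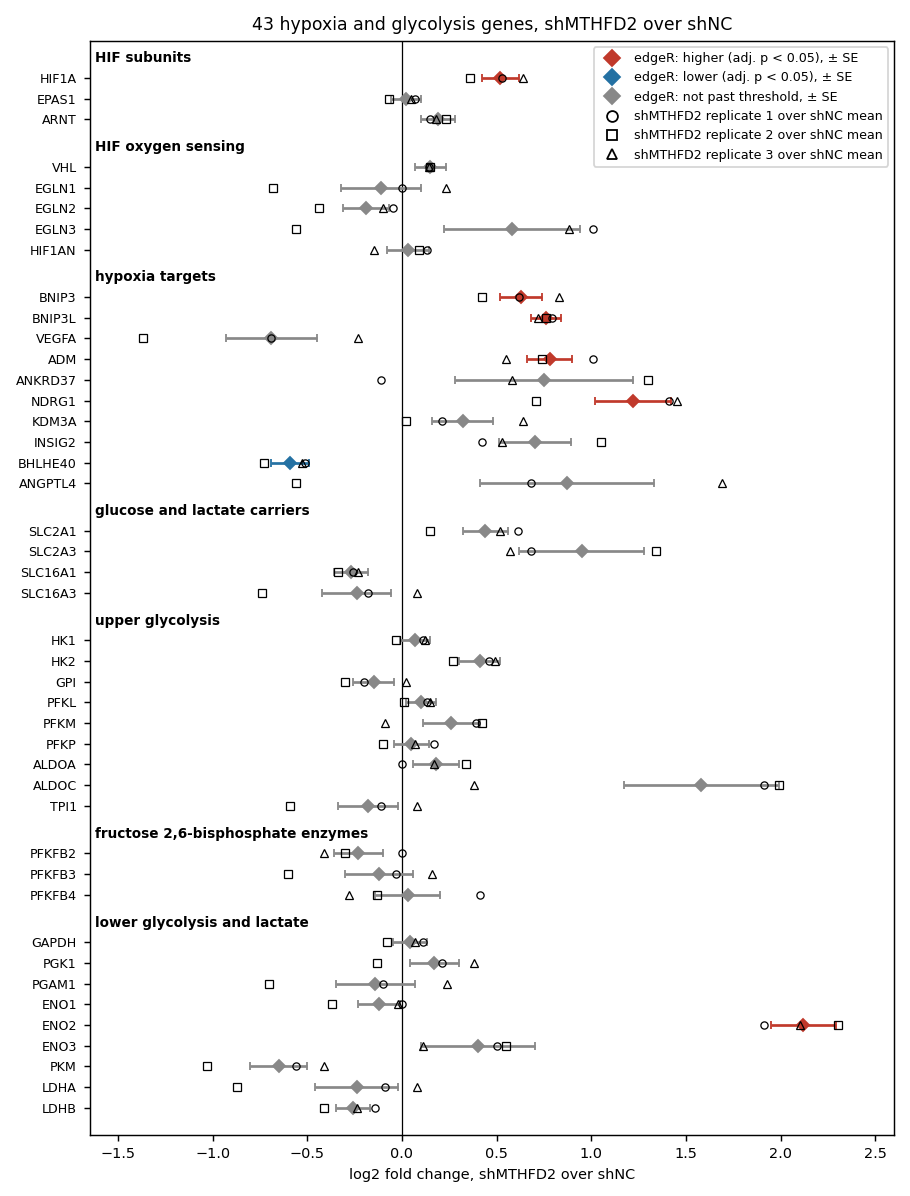
edgeR log2 fold change of each of the 43 genes (shMTHFD2 minus shNC, points with SE bars), grouped by role. The largest positive value is ENO2 at 2.12 and the lowest is VEGFA at -0.69.

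Among the HIF subunits HIF1A rose. HIF1A (Entrez 3091) was at 682, 622 and 784 TPM in the shMTHFD2 libraries, against 475, 466 and 463 TPM in the shNC libraries. All 3 shMTHFD2 libraries lay above all 3 shNC libraries, with means of 696 ± 81.9 and 468 ± 6.50 TPM (SD, n = 3 each), and the log2 fold change was 0.52 ± 0.10 (SE; adjusted p = 0.0337, edgeR). Antisense genes and 1 same-strand gene overlap HIF1A in GENCODE 29. Since strand handling is not given in the sources used here, antisense reads cannot be told apart from its own. Strand would not part the reads of the same-strand gene.

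EPAS1 (Entrez 2034), the other alpha subunit, was at 123, 114 and 129 TPM in shMTHFD2 libraries, against 118, 116 and 113 TPM in shNC libraries. The groups overlapped (log2 0.02 ± 0.08, SE; adjusted p = 0.866, edgeR). ARNT (Entrez 405), the shared partner, was at 20.8, 21.7 and 22.6 TPM in shMTHFD2 and 18.4, 18.4 and 18.7 TPM in shNC, without overlap but not past the threshold (log2 0.19 ± 0.09, SE; adjusted p = 0.204, edgeR). HIF1A made up more of the summed alpha subunit RNA: 84.7%, 84.4% and 85.9% of HIF1A plus EPAS1 TPM in shMTHFD2, against 80.1%, 80.0% and 80.4% in shNC. These shares did not overlap and differed by 4.85 percentage points (exact permutation test, two-sided, p = 0.1, the smallest that 3 against 3 can give; 0.4 after adjustment over 24 shares).

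None of the 5 oxygen sensing genes passed edgeR's test, 0 had an unadjusted p under 0.05, and DESeq2 called 0. VHL (Entrez 7428), the recognition subunit of the ubiquitin ligase, was at 35.0, 36.1 and 36.9 TPM in shMTHFD2 libraries, against 32.3, 30.4 and 31.5 TPM in shNC libraries, a difference without overlap that did not pass (log2 0.15 ± 0.08, SE; adjusted p = 0.276, edgeR). EGLN1 (Entrez 54583), the main HIF prolyl hydroxylase, was at 19.8, 12.4 and 24.6 TPM in shMTHFD2, against 19.8, 20.6 and 17.7 TPM in shNC, and the groups overlapped (log2 -0.11 ± 0.21, SE). EGLN3 (Entrez 112399), itself a HIF target, was at 15.8, 5.37 and 15.5 TPM in shMTHFD2, against 7.63, 6.71 and 8.73 TPM in shNC. Replicates 1 and 3 of shMTHFD2 lay above every shNC library and replicate 2 below them (log2 0.58 ± 0.36, SE; adjusted p = 0.314, edgeR; 0.0061 without shMTHFD2 replicate 2, and 0.0061 to 0.63 over all alternatives). EGLN2 and HIF1AN had log2 fold changes of -0.19 and 0.03.

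Of the 10 targets outside glycolysis, 4 rose (40.0%, against 2.97% of all genes tested), 1 fell (10.0%, against 2.47%) and 5 did not pass, with a median log2 fold change of 0.73. Both mitophagy receptors of the set rose. BNIP3 (Entrez 664) was at 184, 163 and 225 TPM in shMTHFD2 libraries, against 118, 119 and 118 TPM in shNC libraries. Its shNC libraries were within 1 TPM of each other and all lay below the shMTHFD2 libraries, and the log2 fold change was 0.63 ± 0.11 (SE; adjusted p = 0.0291, edgeR). BNIP3L (Entrez 665) was at 70.9, 71.0 and 71.7 TPM in shMTHFD2, against 41.2, 40.5 and 39.9 TPM in shNC. In TPM, no other gene of the 43 had a smaller spread relative to its mean in shMTHFD2. In scaled CPM VHL did, at 75.9 ± 0.502 against 117 ± 2.63 for BNIP3L (SD, n = 3 each). The BNIP3L groups did not overlap, with means of 71.2 ± 0.452 and 40.5 ± 0.645 TPM (SD, n = 3 each). Its edgeR log2 difference was 0.76 ± 0.08 (SE, adjusted p = 0.00842). Antisense genes overlap both BNIP3 and BNIP3L, and 2 same-strand genes overlap BNIP3L.

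ADM and NDRG1 also rose. ADM (Entrez 133), which encodes the vasodilator peptide adrenomedullin, was at 151, 127 and 116 TPM in shMTHFD2, against 76.1, 72.3 and 73.1 TPM in shNC, an edgeR log2 difference of 0.78 ± 0.12 (SE, adjusted p = 0.0227). NDRG1 (Entrez 10397), a stress-responsive gene of differentiation, was at 624, 391 and 674 TPM in shMTHFD2, against 227, 207 and 265 TPM in shNC, an edgeR log2 difference of 1.22 ± 0.20 (SE, adjusted p = 0.0256). Neither gene's groups overlapped, and shMTHFD2 replicate 2 was well below the other shMTHFD2 libraries for NDRG1.

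BHLHE40, a transcriptional repressor of the circadian and hypoxia responses, fell. BHLHE40 (Entrez 8553) was at 190.4, 167 and 199 TPM in shMTHFD2 libraries, against 254, 266 and 286 TPM in shNC libraries. The groups did not overlap and the log2 fold change was -0.59 ± 0.10 (SE; adjusted p = 0.0271, edgeR). An antisense gene overlaps BHLHE40.

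**Figure D2:**
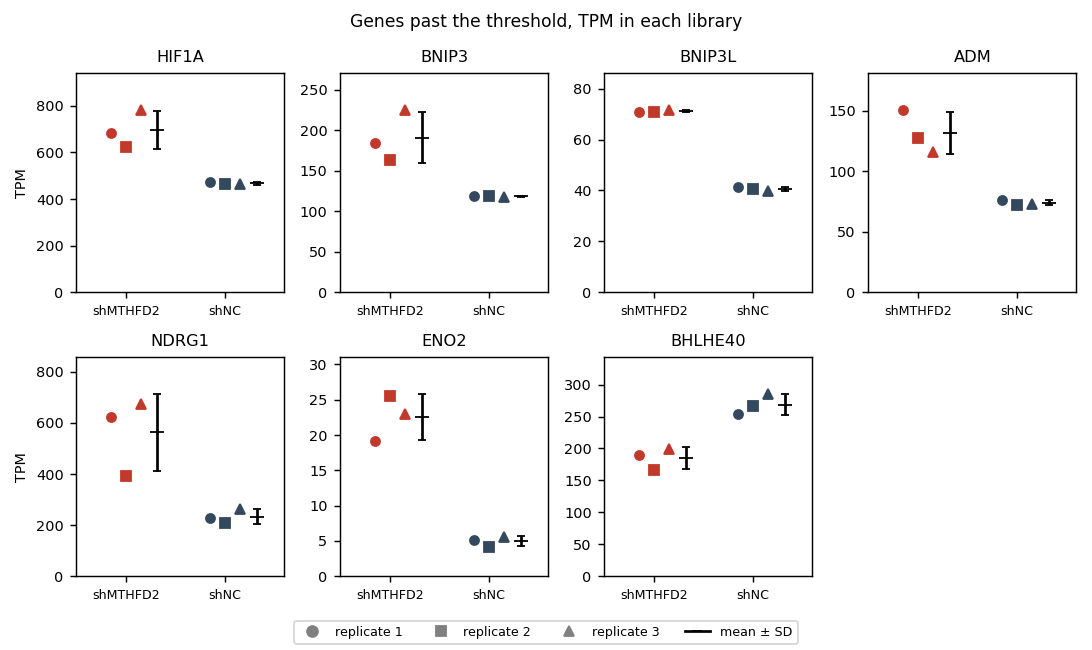
TPM in each library for the 7 genes past the threshold, shMTHFD2 left of shNC, with replicate symbols and mean ± SD (n = 3). The groups do not overlap for any of the 7, and BHLHE40 is the one that is lower in shMTHFD2.

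The angiogenic factor VEGFA was lower in every shMTHFD2 library but did not pass. VEGFA (Entrez 7422) was at 98.4, 62.9 and 142 TPM in shMTHFD2 libraries, against 162, 158 and 149 TPM in shNC libraries. All 3 shMTHFD2 libraries were below all shNC libraries, but their SD was 39.8 TPM against 6.70 TPM, and the edgeR log2 difference was -0.69 ± 0.24 (SE, adjusted p = 0.123). The adjusted p was 0.048 with DESeq2, 0.05 without shMTHFD2 replicate 2 and 0.017 without replicate 3, within a range of 0.017 to 0.34 over all alternatives.

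ANGPTL4 (Entrez 51129), a secreted inhibitor of lipoprotein lipase, was the most variable target. It was at 210.4, 90.3 and 449 TPM in shMTHFD2, against 133, 136 and 121 TPM in shNC, so that the shMTHFD2 libraries lay on both sides of shNC (log2 0.87 ± 0.46, SE; adjusted p = 0.251, edgeR; 0.031 without shMTHFD2 replicate 2, and 0.031 to 0.63 over all alternatives). INSIG2 (Entrez 51141), which retains the sterol sensor SCAP in the endoplasmic reticulum, was at 13.7, 21.5 and 15.7 TPM in shMTHFD2, against 9.83, 10.6 and 9.79 TPM in shNC, without overlap (log2 0.70 ± 0.19, SE; adjusted p = 0.0681, edgeR; 0.0087 with DESeq2, 0.018 and 0.028 without shMTHFD2 replicates 2 and 3, and 0.0087 to 0.25 over all alternatives). ANKRD37 (Entrez 353322) was at 1.71, 5.06 and 3.07 TPM in shMTHFD2, against 1.80, 2.49 and 1.32 TPM in shNC, with overlap (log2 0.75 ± 0.47, SE; adjusted p = 0.318, edgeR). KDM3A, a histone demethylase, had a log2 fold change of 0.32 and passed only without shMTHFD2 replicate 2 (adjusted p = 0.041, edgeR, in a range of 0.041 to 0.43 over all alternatives).

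None of the 4 glucose and lactate carriers passed edgeR's test. At an unadjusted p under 0.05, 2 were higher and 1 lower, against 1998 and 1934 of all 13710 genes tested. DESeq2 called 1 higher, SLC2A1, where it called 8.07% of all genes higher. SLC2A1 (Entrez 6513), the GLUT1 glucose carrier, was at 303, 225 and 302 TPM in shMTHFD2 libraries, against 194, 191 and 203 TPM in shNC libraries. The groups did not overlap (log2 0.44 ± 0.12, SE; adjusted p = 0.0763, edgeR; 0.017 with DESeq2, 0.0056 without shMTHFD2 replicate 2, and 0.0056 to 0.30 over all alternatives). SLC2A3 (Entrez 6515), the GLUT3 carrier, was low throughout at 1.05, 1.73 and 1.03 TPM in shMTHFD2, against 0.79, 0.56 and 0.54 TPM in shNC, without overlap (log2 0.95 ± 0.33, SE; adjusted p = 0.116, edgeR; 0.045 without shMTHFD2 replicate 3, and 0.045 to 0.34 over all alternatives). Its near-identical paralog SLC2A14 may share its reads. The lactate carriers SLC16A1 and SLC16A3 had log2 fold changes of -0.27 and -0.24.

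The 9 genes of upper glycolysis held none past edgeR's threshold. At an unadjusted p under 0.05, 2 were higher, against 1998 of all 13710 genes tested. DESeq2 called 2 higher, HK2 and ALDOC, where it called 8.07% of all genes higher. HK2 (Entrez 3099), the inducible hexokinase, was at 22.8, 20.4 and 24.6 TPM in shMTHFD2 libraries, against 16.2, 18.4 and 14.9 TPM in shNC libraries, without overlap (log2 0.41 ± 0.11, SE; adjusted p = 0.0712, edgeR; 0.017 with DESeq2, 0.016 without shMTHFD2 replicate 2, and 0.016 to 0.27 over all alternatives). HK1, which carries most hexokinase RNA here, had a log2 fold change of 0.07. HK2 was 11.1%, 10.8% and 11.3% of hexokinase TPM in shMTHFD2, against 8.76%, 10.1% and 8.26% in shNC. The exact permutation test (two-sided) gave p = 0.1, the smallest possible, and 0.4 after adjustment over 24 shares.

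ALDOC (Entrez 230), the brain-type aldolase, was at 47.8, 51.6 and 17.3 TPM in shMTHFD2 libraries, against 12.9, 9.69 and 15.7 TPM in shNC libraries. Replicates 1 and 2 of shMTHFD2 were far above shNC and replicate 3 was just above the highest shNC library (log2 1.58 ± 0.41, SE; adjusted p = 0.0668, edgeR; 0.0012 with DESeq2, 0.0043 without shMTHFD2 replicate 3, and 0.0012 to 0.27 over all alternatives). As a share of aldolase TPM it was 2.22%, 1.86% and 0.685% in shMTHFD2, against 0.603%, 0.474% and 0.745% in shNC, which overlap. PFKP (Entrez 5214), the platelet-type phosphofructokinase, was at 195, 168 and 195 TPM in shMTHFD2, against 172, 176 and 172 TPM in shNC (log2 0.05 ± 0.09, SE; adjusted p = 0.719, edgeR). The remaining upper genes GPI, PFKL, PFKM, ALDOA and TPI1 ranged from -0.18 to 0.26 in log2 fold change, and PFKM passed only without shMTHFD2 replicate 3 (adjusted p = 0.02, edgeR, in a range of 0.02 to 0.50 over all alternatives). The bifunctional regulators PFKFB2, PFKFB3 and PFKFB4 had log2 fold changes of -0.23, -0.12 and 0.03, 0 of them past an unadjusted p of 0.05 or called by DESeq2.

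**Figure D3:**
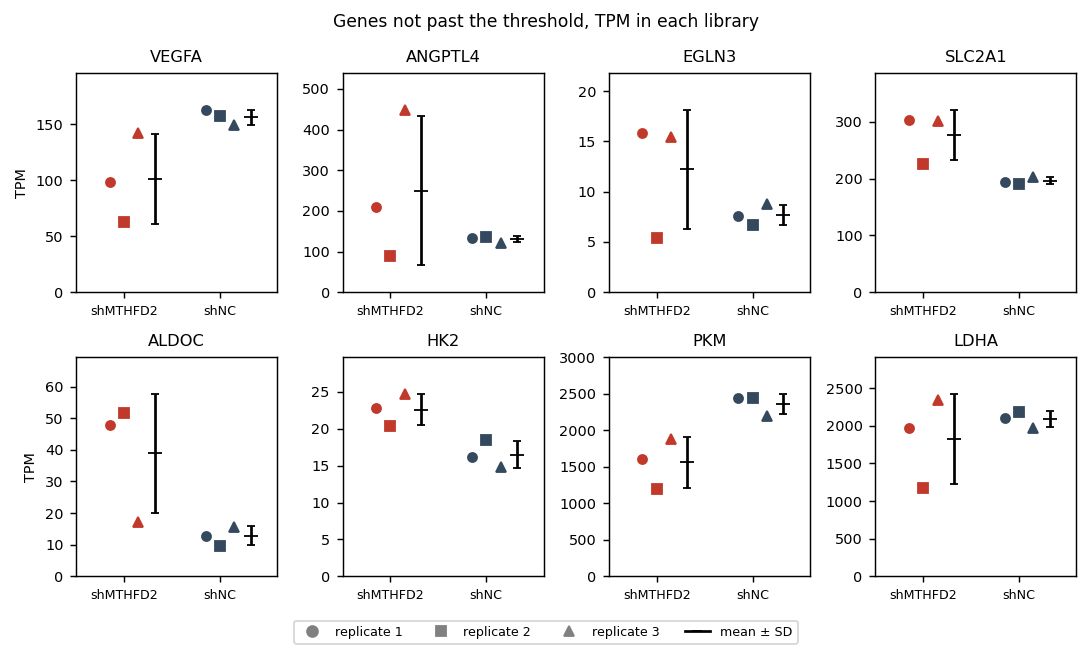
TPM in each library for 8 genes that did not pass the threshold, shMTHFD2 left of shNC, with replicate symbols and mean ± SD (n = 3). For ANGPTL4, EGLN3, ALDOC and LDHA the SD of the shMTHFD2 libraries is 183, 5.94, 18.8 and 599 TPM, against 7.84, 1.01, 3.00 and 104 TPM in the shNC libraries.

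In lower glycolysis ENO2 rose, and it had the largest fold change of the 43 genes. ENO2 (Entrez 2026), the neuronal form of enolase, was at 19.1, 25.6 and 23.0 TPM in shMTHFD2 libraries, against 5.20, 4.19 and 5.62 TPM in shNC libraries. The groups were far apart, with a TPM ratio of 4.51 and an edgeR log2 difference of 2.12 ± 0.17 (SE, adjusted p = 0.00575). It overlaps LRRC23 on the same strand in GENCODE 29, so reads could be split between them. ENO2 remained a minor form, at 0.650%, 1.10% and 0.750% of enolase TPM in shMTHFD2, against 0.175%, 0.144% and 0.200% in shNC. For this share the exact permutation test (two-sided) gave p = 0.1, the smallest possible, and 0.4 after adjustment over 24 shares. ENO1 (Entrez 2023), the main form, was at 2919, 2305 and 3046 TPM in shMTHFD2, against 2967, 2911 and 2801 TPM in shNC (log2 -0.12 ± 0.11, SE; adjusted p = 0.484, edgeR). ENO3, the muscle form, had a log2 fold change of 0.40 and did not pass.

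**Figure D4:**
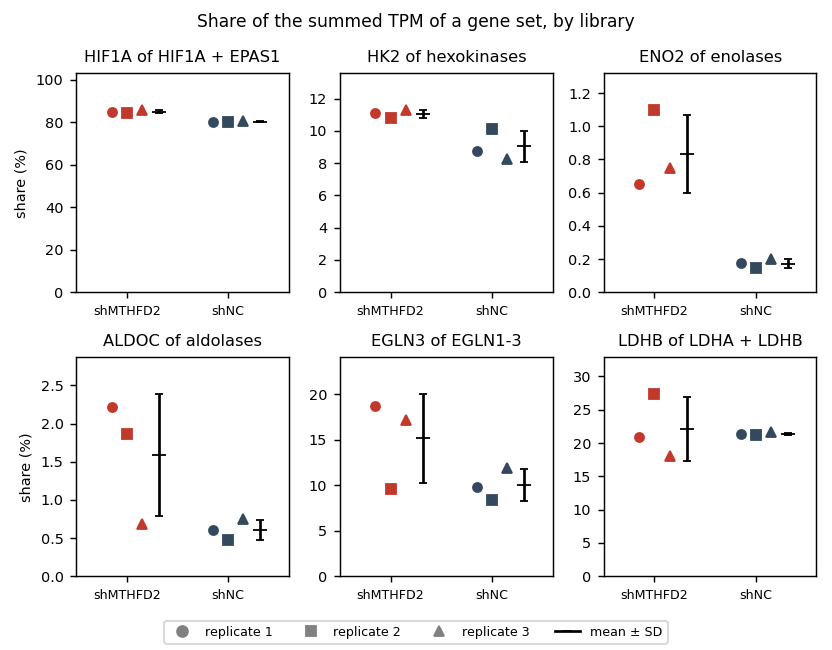
Share of the summed TPM of a gene set in each library, in percent, shMTHFD2 left of shNC, with replicate symbols and mean ± SD (n = 3). HIF1A, HK2 and ENO2 have shares without overlap between the groups, and ALDOC, EGLN3 and LDHB have shares that overlap.

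PKM (Entrez 5315), pyruvate kinase, was at 1603, 1195 and 1882 TPM in shMTHFD2 libraries, against 2445, 2438 and 2196 TPM in shNC libraries. Every shMTHFD2 library was below every shNC library, and the log2 fold change of -0.65 ± 0.15 (SE) lay just outside the threshold (adjusted p = 0.0539, edgeR). It was 0.0034 with DESeq2, 0.017 and 0.014 without shMTHFD2 replicates 2 and 3, and 0.0034 to 0.25 over all alternatives. LDHA (Entrez 3939), which makes lactate, was at 1972, 1168 and 2340 TPM in shMTHFD2, against 2106, 2180 and 1975 TPM in shNC, with overlap (log2 -0.24 ± 0.22, SE; adjusted p = 0.481, edgeR). LDHB had a log2 fold change of -0.26 without overlap, and did not pass.

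GAPDH (Entrez 2597) was at 6696, 5980 and 6897 TPM in shMTHFD2 libraries, against 6103, 6111 and 6172 TPM in shNC libraries (log2 0.04 ± 0.09, SE; adjusted p = 0.814, edgeR). PGK1 (Entrez 5230), which makes ATP, was at 380, 306 and 453 TPM in shMTHFD2, against 324, 325 and 327 TPM in shNC (log2 0.17 ± 0.13, SE; adjusted p = 0.414, edgeR). The groups overlapped for both genes. PGAM1 had a log2 fold change of -0.14. Processed pseudogenes and near-identical copies exist for GAPDH, PGK1, PGAM1, ENO1, LDHA, LDHB, TPI1 and ALDOA, so their counts are uncertain where reads could be split.

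Summed over the 18 enzyme genes of the route, glycolytic RNA was 18385, 15881 and 20229 TPM in shMTHFD2 libraries, against 18870, 18827 and 18242 TPM in shNC libraries. The groups overlapped, and the ratio of means was 0.974. By step the ratio lay between 0.661 for pyruvate kinase and 1.19 for aldolase.

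**Figure D5:**
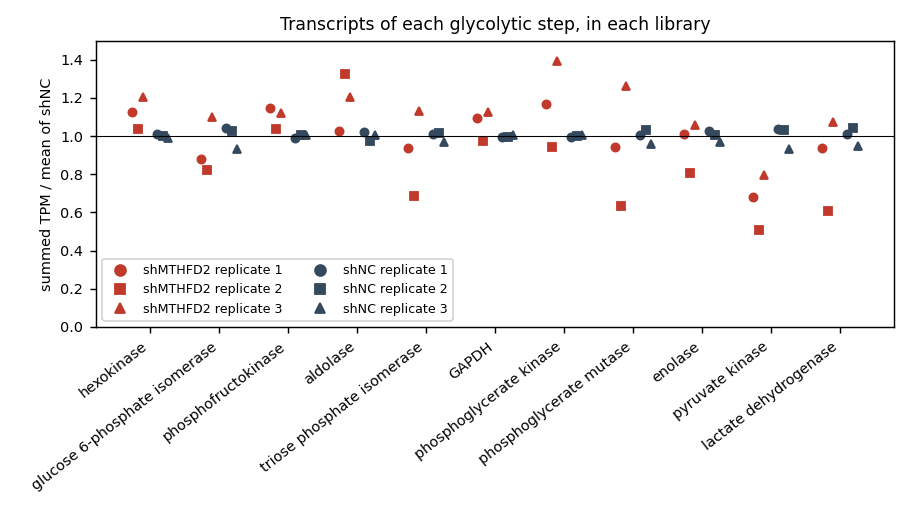
Summed TPM of the genes of each glycolytic step in each library, divided by the shNC mean of that step, shMTHFD2 left of shNC. Pyruvate kinase is the step whose shMTHFD2 libraries lie farthest below 1, with a ratio of means of 0.661.

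Replicate 2 of shMTHFD2 was often the lowest of its group. In 28 of 43 (65.1%) replicate 2 was the lowest of the 3 shMTHFD2 libraries, against 45.4% of all genes tested, and it was lowest in 17 of the 25 glycolysis genes. Replicate 1 was lowest in 11.6% and replicate 3 in 23.3%, against 17.5% and 37.1% of all genes. The median log2 ratio to shNC of the HIF pathway and target genes outside glycolysis was 0.18, 0.12 and 0.54 in shMTHFD2 replicates 1, 2 and 3. That of the glycolysis genes was 0.11, -0.13 and 0.08. MTHFD2 itself was lowest in replicate 2. Counted in TPM, 16 of 43 genes had groups without overlap and higher in shMTHFD2 (37.2%, against 22.5% of all genes), and 5 lower (11.6%, against 13.2%). In scaled CPM these were 14 (32.6%, against 18.0%) and 5 (11.6%, against 19.7%).

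Other genes of the pathway, outside the 43, were counted from lists by role. These lists too were chosen with earlier results of these data known, so their shares describe the lists and do not test them independently. Of 21 other hypoxia targets tested, 7 rose (33.3%, against 2.97% of all genes tested) and 1 fell (4.76%, against 2.47%), with a median log2 fold change of 0.29, against 0.01 over all genes. PLIN2, a coat protein of lipid droplets, was at 13.1, 12.1 and 13.7 TPM in shMTHFD2, against 3.68, 4.58 and 3.23 TPM in shNC (log2 1.71 ± 0.17, SE; adjusted p = 0.00776, edgeR). P4HA1, a collagen prolyl hydroxylase, had a log2 fold change of 0.95 ± 0.12 (SE), CA9 of 2.42 ± 0.32 and CA12 of 1.07 ± 0.14, both carbonic anhydrases of pH control. MXI1, LOX and WSB1 also rose and STC2 fell, these 4 named after their values were seen. None of 10 other HIF regulators passed with edgeR. At an unadjusted p under 0.05, 4 were lower, against 1934 of all 13710 genes tested. DESeq2 called 3 lower, where it called 6.69% of all genes lower. ELOC and RBX1, members of the VHL ubiquitin ligase, were at log2 -0.36 and -0.41, with adjusted p of 0.0505 and 0.0517 (edgeR). CREBBP and EP300 were at -0.52 and -0.30, with adjusted p of 0.0742 and 0.0931 (edgeR). Of the same ligase, ELOB, CUL2 and VHL were at 0.06, -0.25 and 0.15, and none passed.

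Genes of neighbouring carbon routes were counted as well, in lists too short to hold many calls at the shares of all genes tested. Of 12 glycogen genes 1 rose (8.33%, against 2.97% of all genes tested) and 0 fell, with a median log2 fold change of -0.05. At an unadjusted p under 0.05, 2 of the 12 were higher and 3 lower, against 1998 and 1934 of all 13710 genes tested. DESeq2 called 1 higher and 1 lower, where it called 8.07% and 6.69% of all genes. The gene that rose was GAA, the lysosomal glucosidase: 102, 119.8 and 88.9 TPM in shMTHFD2, against 56.2, 49.6 and 59.2 TPM in shNC (log2 0.86 ± 0.15, SE; adjusted p = 0.0271, edgeR). With edgeR none passed of 16 TCA cycle genes, 8 other glycolytic isozymes and side enzymes, 15 other carriers or 4 gluconeogenesis genes, with median log2 fold changes of -0.12, -0.21, -0.12 and -0.10. At an unadjusted p under 0.05, 4, 2, 1 and 2 of them were lower and 0 higher. Over all 13710 genes tested, 1934 were lower and 1998 higher at that p. DESeq2 called 2, 1, 0 and 0 lower, where it called 6.69% of all genes lower. Of PLIN2, P4HA1, CA9, CA12 and GAA, P4HA1 alone passed without shMTHFD2 replicate 1 (adjusted p = 0.04, edgeR; 0.051 to 0.11 for the others). None of these 5 passed without shNC replicate 1, 2 or 3, with adjusted p of 0.067 to 0.17 (edgeR).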

How the data were processed

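RNA-seq of 6 SCC-9 libraries was analysed, 3 shMTHFD2 and 3 shNC. Per the file headers, the deposited table gives for each library an estimated count, an FPKM value and a TPM value for each gene, all made by the authors. Neither aligner, counting tool nor strand setting is given in the sources used here. A mouse build, mm10, stands in the submitters' processing notes beside a human organism label, and no coordinate was taken from it. Another 14 columns of values (normalized read counts and group averages) were not used.

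Estimated counts were rounded to whole numbers and tested with edgeR 4.0.16 (R 4.3.3), with TMM scaling, filterByExpr, the robust quasi-likelihood F test and Benjamini-Hochberg adjustment over 13710 genes at a threshold of 0.05. SEs were derived from the fold change and the F statistic. The steps were tested on simulated data with the same dispersion in both groups, which does not cover the unequal spread seen here. TPM gave levels and shares within gene sets, and shares were compared by exact permutation (NumPy 2.4.6). FPKM served as an alternative for the shares. Alternatives were DESeq2 1.42.0, limma 3.58.1 (voom, and trend on TPM), other scalings and filters, a replicate block and leaving out each library. The alternative with total counts was added after seeing the data. The members and lists were chosen with earlier results of these data known. Values per library are given for members past the threshold, those with an absolute log2 fold change of at least 0.5, and 14 fixed genes, and up to 4 genes with the smallest adjusted p are named per pathway list. No 2 libraries agree within sampling noise (chi-square per degree of freedom 3.58 or more). Promoters are from RefSeq (GRCh38.p14), matched by symbol for 36 of 43 genes. A further pathway list is not reported here.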

Additional observations from a re-analysis of the deposited data

How the results depend on the processing

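The edgeR fit called 745 genes, against 2023 with DESeq2, 16 with a replicate block and 1 to 3651 when 1 library was left out. Members called higher numbered 6, against 10 with DESeq2, 1 with the replicate block (ENO2, adjusted p = 0.049) and 0 to 12 with 1 library left out. Members called lower numbered 1, against 3 with DESeq2, 0 with the block and 0 to 3 with 1 library left out. In the pathway lists, 7 other hypoxia targets rose, against 0 with the replicate block and 0 to 12 with 1 library left out, and 1 fell, against 0 with limma-trend, 0 with the block and 0 to 1 with 1 library left out. Other HIF regulators, TCA cycle, other isozymes and glycogen genes held 0 that fell, against 3, 2, 1 and 1 with DESeq2 and up to 3, 3, 2 and 2 with 1 library left out. Other carriers and gluconeogenesis held 0 that fell, and up to 4 and 1 with 1 library left out. The single call of GAA became 0 with the replicate block. The same 7 members passed under the other scalings, filters and limma fits. Across the groups, deviations of same-numbered libraries correlated at -0.02, -0.27 and -0.26, and those of differently numbered ones at -0.04 to 0.27. With 3 libraries per group, these values cannot show whether the numbers pair the samples. The cause of these shifts was not tested. With 1 library left out, log2 fold changes lay between -0.29 and 0.12 for EGLN1, -0.03 and 0.13 for HIF1AN, -0.00 and 0.13 for PFKP, -0.27 and 0.08 for PFKFB3, -0.19 and 0.19 for PFKFB4, -0.35 and 0.09 for PGAM1, and -0.41 and 0.01 for LDHA. For G6PC1, a low gene at 0.05 in the edgeR fit, the value was -0.08 with limma-voom and -0.04 with the replicate block, and lay between -0.53 and 0.35 with 1 library left out. Differences in share, in percentage points, then lay between -0.395 and 0.762 for PFKL, -5.68 and 1.75 for PFKFB3, -2.77 and 1.92 for LDHA, -1.92 and 2.77 for LDHB, -3.03 and 2.51 for SLC16A1, -2.51 and 3.03 for SLC16A3, and -2.30 and 0.292 for EGLN1. The 3 libraries in each group limit every comparison, and no permutation p of a share can pass 0.05.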
